A study of Danio rerio with 4 samples.

Results

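The Nr4a genes encode orphan nuclear receptors, transcription factors that bind DNA without a known natural ligand. Zebrafish carry *nr4a1* (Nur77), the paralogs *nr4a2a* and *nr4a2b* (Nurr1) and *nr4a3* (Nor1), and 3 of these 4 genes were measured here, out of 19661 genes in all. They were found by their gene symbol, and *nr4a2a* was not analysed here. In mammals these receptors are immediate early genes, whose transcription follows growth factors, cAMP, calcium or fluid forces without new protein synthesis. They bind the NBRE element as monomers, and NR4A1 and NR4A2 also pair with retinoid X receptors (Rxr). NR4A2 is best known for the making of dopaminergic neurons, and the study examined *nr4a2b* in the endocardium, the inner lining of the heart that forms the valves.

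The samples were pools of 20 hearts dissected at 48 hpf (hours post-fertilization), 2 pools from *egr3* mutants (bns577-/-) and 2 pools from their wild-type siblings (bns577+/+), sorted by live genotyping. The allele bns577 is an 11-bp deletion in *egr3*, present in all cells. Bulk RNA was read after full-length cDNA amplification (SMART-Seq), so a lower value can mean fewer expressing cells or less RNA per cell, which cannot be told apart. The deposited values are normalized counts, rounded to whole numbers by the authors, with totals from 9161759 to 9481943 per pool. The sequencing sheet of the study pairs wild-type replicate 2 with a library of a mutant name, and mutant replicate 2 with a library of a wild-type name. Genotypes follow the sample labels here, and the series description states that the deletion was seen in the reads of the mutant samples. Heart and endocardial markers were present in all pools. *myl7* had 2491 and 2610 normalized counts in wild types against 2365 and 2336 in mutants, and *cdh5* had 4311 and 3823 against 3728 and 4351.

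Sequences that define the comparison and the gene it turns on are given next. The first is the guide site used to make bns577, shown with its PAM in capitals, and the others are the gene-specific parts of the primers for the *nr4a2b* in situ probe, with an ATG at the 5′ end in capitals.
egr3 guide site: ggcaaggatgaggacgtggcCGG
nr4a2b probe forward: ATGccctgcgtccaggctcagtatg
nr4a2b probe reverse: cggcaatattggcatcgatttcgc

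*egr3* mRNA itself was not lost. It had 528 and 537 normalized counts in wild types against 873 and 889 in mutants, so both mutant pools lay above both wild-type pools. The log2 difference was 0.73 (SE 0.05, adjusted p = 0.122, limma). A deletion of this size need not remove the mRNA, so this level does not check the genotype.

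All 3 measured Nr4a genes were below their wild-type values in each mutant pool, with no overlap. The extent differed widely: *nr4a2b* was listed at 0 in mutants, whereas *nr4a1* kept 75.1% and *nr4a3* 79.3% of the wild-type mean. No member passed an adjusted p of 0.05 in limma, a linear model with moderated variances, fitted on log2(normalized count + 1) over 17501 genes. That threshold was passed by 0.00571% of the genes tested, which is 1 gene, *he1.1*. Before adjustment, *nr4a1* and *nr4a2b* had p under 0.05, a limit passed by 21.6% of all genes tested and, for lower values in mutants, by 10.8%. Separation of the genotypes alone was common, since 25.8% of genes had both mutants below both wild types. The study, with a different test on these libraries, reported many more genes past an adjusted p of 0.05. Among them it reported *nr4a2b* as significantly down-regulated in mutants. It also examined *nr4a2b* by in situ hybridization in mutants and wild-type siblings, and reported its valve expression in single-cell data. When *nr4a2b* was overexpressed in *egr3* mutants, the study described a partial rescue of endocardial cell migration.

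*nr4a2b* (ENSDARG00000044532) lies at chr6:12462079-12466550 on the plus strand, in the Ensembl coordinates of the deposited table, for which the submitters list danRer11. It had 47 and 43 normalized counts in the wild-type pools, and 0 was listed for both mutants. The gap of 43 between the genotypes was far wider than the range of 4 within the wild types. On the log2(normalized count + 1) scale, where the added 1 sets the size, the difference had an adjusted p = 0.122 (limma). By its p before adjustment it ranked 10 of 17501 genes, and by the size of its decrease on this scale it ranked 11. The study had already picked *nr4a2b* from these same libraries, so these ranks are a description and not independent evidence.

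A value of 0 in both mutants was rare at this level. Among the 17501 genes tested, 15 genes (0.0857%) were listed at 0 in both mutants. Among 1847 genes with a wild-type mean between 30 and 67.5 normalized counts, within 1.5-fold of *nr4a2b*, there were 3 such genes (0.162%). Beside *nr4a2b* these were *scin* and *si:dkey-193p11.2*, named because the count is small. In the mirrored direction, none of 1885 genes with a mutant mean in that window was listed at 0 in both wild types. The read numbers behind the rounded values are not known, so a listed 0 gives no upper limit and no fold change.

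*nr4a1* (ENSDARG00000000796) lies at chr23:32149269-32194397 on the minus strand. It encodes Nur77, which in mammals is induced by T cell receptor signals and vascular stimuli. It had 773 and 754 normalized counts in the wild-type pools, against 557 and 590 in the mutants. The genotypes were 164 normalized counts apart, against ranges of 19 and 33 within them. The means were 763.5 ± 13.4 and 573.5 ± 23.3 (SD, n = 2 each). The log2 difference was -0.41 (SE 0.06, adjusted p = 0.134, limma). Its 95% interval, which takes the pools as independent, ran from -0.58 to -0.25, or 0.671 to 0.841 times the wild-type level. Among 3049 genes with a wild-type mean within 1.5-fold of its own, 2.07% had a log2 difference at least as low.

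*nr4a3* (ENSDARG00000055854) lies at chr16:27345383-27369782 on the plus strand. It encodes Nor1, which in mammals is induced in vascular cells by growth factors. It had 162 and 186 normalized counts in the wild-type pools, against 145 and 131 in the mutants. The genotypes did not overlap, but the gap of 17 was no wider than the range of 24 within the wild types. The means were 174 ± 17.0 and 138 ± 9.90 (SD, n = 2 each). The log2 difference was -0.33 (SE 0.12, adjusted p = 0.245, limma). The 95% interval, 0.624 to 1.01 times the wild-type level, included no change. Among 2526 genes with a wild-type mean within 1.5-fold of its own, 13.4% had a log2 difference at least as low.

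**Figure D1:**
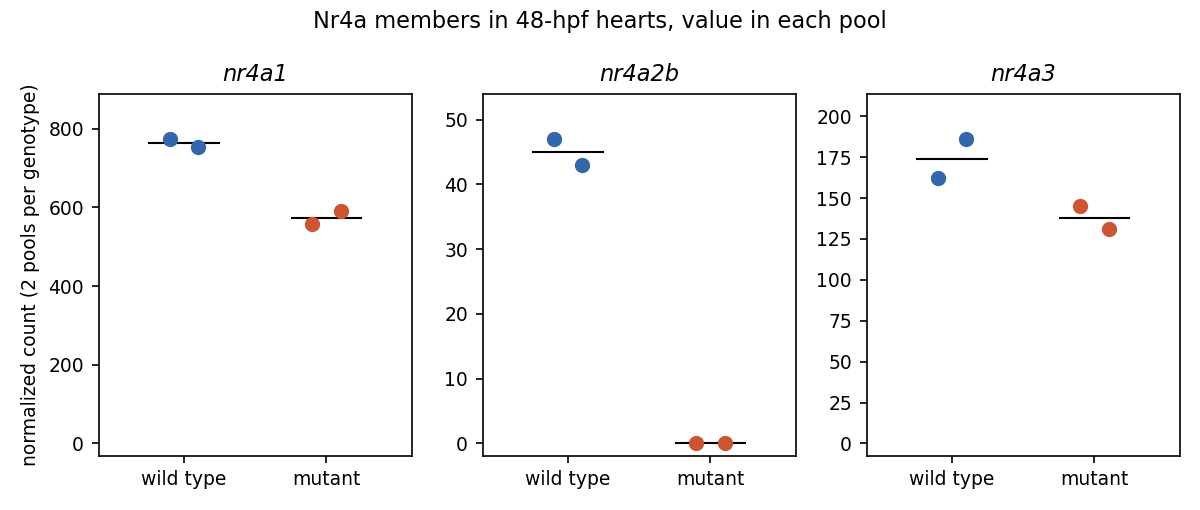
Normalized counts (y axis, from 0, a scale for each gene) of *nr4a1*, *nr4a2b* and *nr4a3* in 2 wild-type pools (blue) and 2 *egr3* mutant pools (red); points are pools and black lines are means. *nr4a2b* is at 47 and 43 in wild types against 0 in both mutants, whereas *nr4a1* and *nr4a3* keep 75.1% and 79.3% of the wild-type mean.

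Whether *nr4a2b* differed more between the genotypes than its paralogs was tested directly on the log2 ratio of 2 members within each pool, with 1 added to each value. The ratio of *nr4a2b* to *nr4a1* was -4.01 and -4.10 in wild types against -9.12 and -9.21 in mutants. Against *nr4a3* it was -1.76 and -2.09 in wild types against -7.19 and -7.04 in mutants. The genotype means of these ratios differed by -5.11 and -5.19, in the same direction in 2 of 2 mutant pools. The exact two-sided permutation p was 0.333 for both, the smallest that 2 against 2 pools can give, and 0.5 after Benjamini-Hochberg adjustment over 3 pairs. As *nr4a2b* was listed at 0 in both mutants, the added 1 sets the size of these differences. The study had picked *nr4a2b* from these same libraries, so their direction is not independent evidence.

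The third pair, *nr4a3* against *nr4a1*, was added after the values were seen. Its ratio was -2.25 and -2.01 in wild types against -1.93 and -2.16 in mutants, and the genotypes overlapped. The mean difference was 0.08 (exact permutation p = 0.667, also after adjustment), and a test of 2 against 2 pools could not have resolved a difference between *nr4a1* and *nr4a3*. Neither gene was shown to be unchanged, since the 95% interval of *nr4a1* excluded 0 and that of *nr4a3* reached from -0.68 to 0.02. Both intervals take the pools as independent and may be too narrow, given the mirrored deviations described below. Levels of different members are given as normalized counts only and are not compared with each other, because the lengths of their exons were not known.

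Replicate 1, which leaves out both libraries with crossed names and has 1 pool per genotype, gave 47 in the wild type and 0 in the mutant for *nr4a2b*, 773 and 557 for *nr4a1*, and 162 and 145 for *nr4a3*. With only 1 of the crossed libraries left out, the members were also lower. Without wild-type replicate 2, the log2 difference of *nr4a1* was -0.43 and that of *nr4a3* -0.23, and without mutant replicate 2 they were -0.45 and -0.26. The deviations of the 2 pools from their genotype mean were nearly mirror images between wild types and mutants, with a correlation of -0.987 across 17501 genes, which are not independent replicates. The spreads of the genotypes are therefore not independent of each other. Values of the pools kept are likewise not independent of those left out, so leaving pools out does not check the crossed names. The p-values rest on the spread between these pools, moderated toward that of other genes of similar level. With the replicate number as a block, *nr4a2b* and *nr4a1* but not *nr4a3* were under 0.05 before adjustment, as were 4.9% of all genes (limma). Adjusted p was at least 0.841 for each, and no gene of the table passed. Replicate numbers hardly differed when averaged over genotypes, so this block had little to remove. Its standard errors were larger, for *nr4a1* 0.12 against 0.06 without the block. The fit without a block counts the mirrored spreads as independent, so its standard errors and intervals may be too narrow.

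Other nuclear receptors give a frame for the family. Of 63 genes on a list of other receptors, 51 had values and 46 were tested, and none passed the adjusted threshold (lowest adjusted p = 0.134, limma). Before adjustment, 8 were lower and 5 higher in mutants (17.4% and 10.9%, against a background of 10.8% in each direction), and their median log2 difference was 0.00, as over all genes. None of the 46 was listed at 0 in both mutants, had a lower log2 difference than *nr4a2b* or had a lower p than *nr4a2b* or *nr4a1*. Their log2 differences ran from -2.14 to 1.90, and 8 of them were below that of *nr4a1*. The lowest p among those lower in mutants was that of *ppardb*, a fatty acid sensor encoded on chromosome 8, as is *egr3*. It had 892 and 907 normalized counts in wild types against 729 and 742 in mutants. Among those higher, the lowest p was that of *nr2f1b*, a COUP-TF receptor, at 146 and 152 against 192 and 191.

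**Figure D2:**
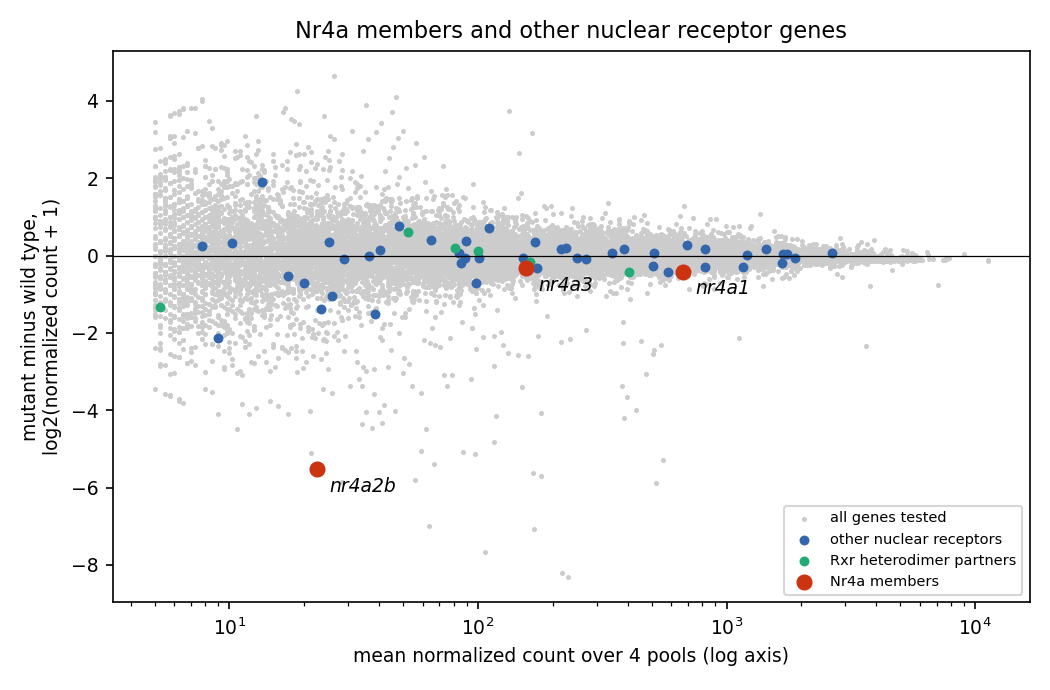
Log2 difference between mutants and wild types (y axis) against mean normalized count (x axis, log scale) for 17501 genes tested (gray), 46 other nuclear receptors (blue), 6 Rxr genes (green) and 3 Nr4a members (red); each point is a gene. *nr4a2b* lies apart from all other nuclear receptors, at a size set by the added 1, and *nr4a1* and *nr4a3* lie slightly below 0.

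The Rxr genes encode partners with which Nr4a receptors can form heterodimers, and all 6 were measured. *rxrbb* resembled *nr4a1* in size, with 468 and 456 normalized counts in wild types against 334 and 355 in mutants, a log2 difference of -0.42 (SE 0.07, adjusted p = 0.134, limma). *rxrab* had low values, 10 and 6 in wild types against 2 and 3 in mutants. These 2 of 6 genes were the only Rxr genes with p under 0.05 before adjustment (33.3% lower, against a background of 10.8%), and with the replicate block none was (background 4.9%).

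None of the other Rxr genes had p under 0.05 before adjustment (limma). *rxrgb* had 169 and 175 normalized counts in wild types against 153 and 152 in mutants, a gap of 16 that was wider than the range within either genotype (adjusted p = 0.308, limma). *rxraa*, at 47 and 35, was higher in mutants at 53 and 74 (adjusted p = 0.291, limma). The genotypes overlapped for *rxrga* (100 and 92 against 98 and 110) and for *rxrba* (52 and 100 against 112 and 60). The genotypes did not overlap for 3 Rxr genes on the lower side and 1 on the higher side, where the background was 25.8% and 24.7%.

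Upstream of the family, CREB proteins and their Crtc coactivators, Mef2 and Srf carry cAMP, calcium and growth factor signals to Nr4a promoters in mammals. All 16 listed genes had values and 15 were tested, with none past the adjusted threshold (lowest adjusted p = 0.162, limma). Before adjustment, 1 was lower and 1 higher, against a background of 10.8% in each direction. *crema*, a CREB relative, had 186 and 173 normalized counts in wild types against 226 and 252 in mutants (log2 difference 0.41, SE 0.10). *mef2aa* had 3316 and 3416 in wild types against 3106 and 3121 in mutants (log2 difference -0.11, SE 0.03). The median log2 difference of the list was 0, and *creb1a*, a central CREB gene, overlapped between genotypes at 1201 and 1336 against 1255 and 1167. Its paralog *creb1b* did not overlap, at 409 and 422 in wild types against 462 and 464 in mutants. Over the list, the genotypes did not overlap for 4 genes on the lower side and 4 on the higher side (background 25.8% and 24.7%).

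Other immediate early genes share the signals that induce Nr4a genes. Of 35 listed, 32 were tested, and none passed the adjusted threshold (lowest adjusted p = 0.126, limma). Before adjustment, 11 were lower in mutants (34.4%, against a background of 10.8%) and none higher. With the replicate block the same limit was passed by 5, all lower (*dusp2*, *junbb*, *fosab*, *egr4* and *ier2a*, named because the count is small), against a background of 2.36% for lower and 2.54% for higher values. The genotypes did not overlap for 15 genes on the lower side and 2 on the higher side (background 25.8% and 24.7%). Fewer passed with a pool left out: 6 were lower without wild-type replicate 1 (background 6.11%), without wild-type replicate 2 (3.28%) or without mutant replicate 1 (2.94%), and 7 without mutant replicate 2 (3.58%). Without wild-type replicate 2, 1 gene was higher, and with any other pool left out none was.

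*dusp2*, a phosphatase that turns off MAP kinases, had the lowest p of the list, with 200 and 182 normalized counts in wild types against 84 and 95 in mutants. Its log2 difference was -1.09 (SE 0.12, adjusted p = 0.126, limma), a lower value than those of *nr4a1* and *nr4a3*. *dusp2* lies on chromosome 8, as does *egr3*, and any part of this shared chromosome in its difference was not tested. *fosab*, an AP-1 subunit, had 1087 and 921 in wild types against 554 and 677 in mutants. *egr4*, of the same family as *egr3*, had 39 and 11 in wild types against 0 and 1 in mutants. Its wild-type pools were far apart. *jund*, the gene with the lowest p among those higher in mutants, had 358 and 288 in wild types against 380 and 489 in mutants (adjusted p = 0.301, limma). The list was not uniform, because *egr1* (858 and 671 against 572 and 758), *atf3* (990 and 604 against 551 and 934) and *dusp1* (2499 and 1939 against 2270 and 3029) overlapped between the genotypes. The median log2 difference was -0.13, against 0.00 over all genes.

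**Figure D3:**
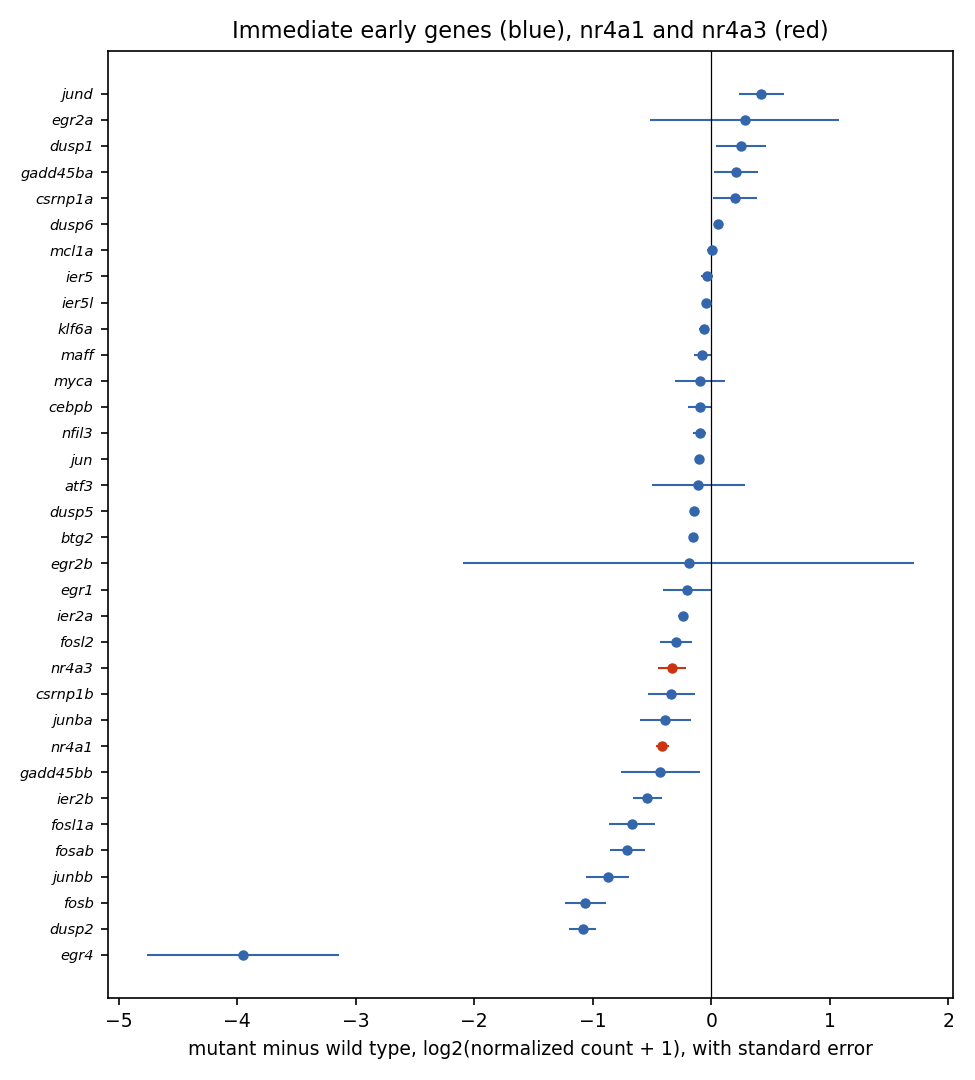
Log2 difference between mutants and wild types (x axis) with its standard error (bars, limma) for 32 immediate early genes (blue) and for *nr4a1* and *nr4a3* (red), ordered by size; *nr4a2b* is left out because it is listed at 0 in mutants. Of the 32 genes, 25 lie below 0, and *dusp2*, at -1.09, lies further down than both Nr4a genes.

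The next list holds genes that NR4A receptors are reported to activate in mammals. Of 18 listed, 11 had values and 9 were tested. Before adjustment, 2 were lower in mutants (22.2%, against a background of 10.8%) and none was higher, and none passed the adjusted threshold. *spp1*, which encodes the matrix protein osteopontin and which the study links to Nr4a2, had 740 and 749 normalized counts in wild types against 159 and 163 in mutants (log2 difference -2.20, SE 0.06, adjusted p = 0.0774, limma). The study had selected *spp1* on these samples, where its own test gave a significant decrease. *eno3*, a muscle enolase, had 2970 and 3110 in wild types against 2841 and 2808 in mutants.

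Dopaminergic genes, for which NR4A2 is best known, were also measured, although the pools were dissected hearts. Their dependence on *nr4a2b* in the heart was not tested. *th*, the rate-limiting enzyme of dopamine synthesis, had 150 and 119 normalized counts in wild types against 138 and 181 in mutants. *slc18a2*, the vesicular monoamine transporter, had 93 and 68 against 79 and 113, and *ddc*, which makes dopamine from its precursor, had 201 and 114 against 128 and 234. The genotypes overlapped for each, and the adjusted p of *th*, the gene with the lowest p among those higher in mutants, was 0.542 (limma). *slc6a3*, the dopamine transporter, stayed at 3 to 5 normalized counts in all pools and was too low to test.

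No gene of the table overlapped a member, which matters because the kit does not keep the strand. The nearest tested neighbor of *nr4a2b* was *gpd2*, 2.63 kb away, with 226 and 218 normalized counts in wild types against 209 and 224 in mutants. On the other side *stk24b*, 16.0 kb away, had 1577 and 1802 against 1620 and 1468. Within 250 kb of *nr4a2b*, 6 genes were tested, of which none was lower and 1 was higher in mutants at p under 0.05 before adjustment, against a background of 10.8% for each direction. The lowest log2 difference among them was -0.13.

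Near the other members the picture was similar. Of 20 genes tested within 250 kb of *nr4a1*, none was lower at that limit and 3 were higher, against a background of 10.8% for each direction. Its nearest tested neighbors on either side were *grasp* (918 and 797 normalized counts in wild types against 790 and 941 in mutants) and *rprm3* (5 and 5 against 9 and 8). Of 16 genes near *nr4a3*, 1 was lower and 2 were higher. The nearest tested neighbor on one side was *stx17* (150 and 166 against 189 and 176) and on the other *sec61b* (656 and 722 against 795 and 748), both with higher values in mutants but p above 0.05 before adjustment.

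**Figure D4:**
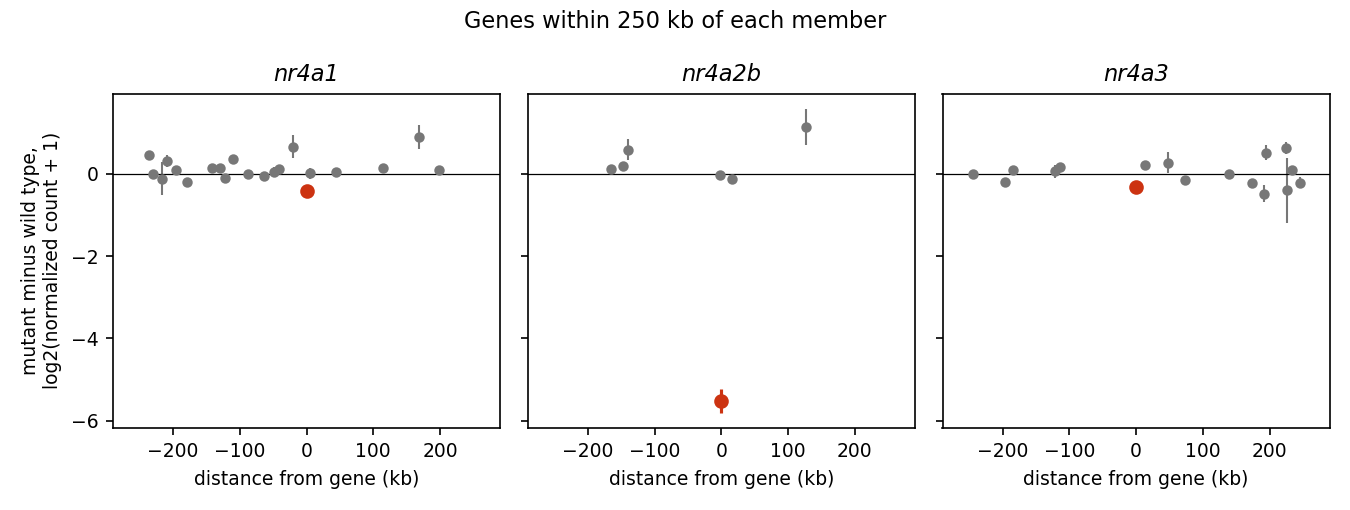
Log2 difference between mutants and wild types (y axis) with its standard error (bars, limma) for tested genes within 250 kb (gray) of each member (red), against distance from the member in kb (x axis, negative toward lower coordinates). The 6 neighbors of *nr4a2b* lie at or above -0.13, far from the member itself.

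The 5 genes whose values over the 4 pools were most like those of *nr4a2b*, by Euclidean distance on the log2(normalized count + 1) scale, were *scin*, *stard15*, *foxi3a*, *si:dkey-193p11.2* and *abcc6a*. *scin*, which encodes an actin-severing protein, had 50 and 64 normalized counts in wild types, and 0 was listed for both mutants. *stard15* had 22 and 21 and was likewise listed at 0. *foxi3a*, a transcription factor of skin ionocytes in zebrafish, had 28 and 39 in wild types against 1 in each mutant. *si:dkey-193p11.2* had 16 and 69 in wild types, a wider spread than that of *nr4a2b*. *abcc6a*, an ABC transporter gene, had 28 and 19 in wild types against 0 and 1 in mutants.

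Some markers of tissues outside the heart also had lower values in mutants. Of the hatching gland markers, 4 of 5 tested rows were lower at p under 0.05 before adjustment (background 10.8%). Both mutants lay below both wild types for all 5 rows (background 25.8%), and the median log2 difference was -5.09. The list sums were 4712 and 5162 normalized counts in wild types against 3180 and 3167 in mutants. *he1.1*, a hatching enzyme, had 987 and 1063 in wild types against 17 and 16 in mutants, and *he1.2* had 280 and 388 against 2 and 1. In the epidermis and ionocyte list, 6 of 12 tested genes were lower at p under 0.05 before adjustment (background 10.8%) and none was higher. All 12 log2 differences were below 0, with a median of -2.37. The genotypes did not overlap for 6 genes, all on the lower side (background 25.8%), and overlapped for the other 6. The sums overlapped too, at 3610 and 16629 in wild types against 3969 and 1273 in mutants. Among the listed markers of either tissue that had values, none was at 0 in all pools, and *he1.3* had no values. The part of these tissues in the value of *nr4a2b* was not tested.

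Of 9 neuron genes tested, none was lower and 2 were higher in mutants at p under 0.05 before adjustment. The background was 10.8% in each direction, here and for the lists that follow. The log2 difference was above 0 for 8 of the 9 genes, with a median of 0.50. The genotypes did not overlap for 6 of the 9, all on the higher side (background 24.7%). List sums were 401 and 518 normalized counts in wild types against 714 and 612 in mutants. *elavl3*, an early neuronal gene, had 13 and 11 against 40 and 48. Sums of the neural crest and pigment list were 114 and 24 in wild types against 79 and 350 in mutants, with 1 of 5 tested genes higher at that limit and none lower. That gene was *sox10*, a neural crest transcription factor, at 2 and 1 against 27 and 36. All 5 log2 differences of this list were above 0, with a median of 1.40, but the genotypes overlapped for 4 of the genes. In the endothelial and endocardial list, none of 7 genes was lower and 3 were higher at that limit. It summed to 20676 and 19065 in wild types against 19655 and 22050 in mutants, with overlapping genotypes. The valve endocardium list (16285 and 16203 against 15419 and 16034) held 3 lower and 2 higher genes among 8. In the macrophage and neutrophil list, none of 8 genes was lower and 1 was higher at that limit. The log2 difference was above 0 for 7 of these 8 genes, with a median of 0.19. The genotypes did not overlap for 2 of them, both on the higher side (background 24.7%). The sums of this list (3197 and 2449 against 2704 and 3679) overlapped. Of 8 red blood cell genes, none was lower and 1 was higher at that limit, and of 4 epicardial genes none was lower or higher. Of 8 cardiomyocyte rows, 2 were lower and none was higher at that limit. The genotypes did not overlap for 6 of these rows, all on the lower side (background 25.8%). The cardiomyocyte sums overlapped, at 18804 and 20677 in wild types against 19827 and 18610 in mutants.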

How the data were processed

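The authors trimmed single-end reads with Trimmomatic 0.39, aligned them to danRer11 with STAR 2.7.10a, discarded duplicates, multi-mapped reads and those from rRNA or mitochondria, and counted reads on exons with featureCounts 2.0.2. The deposited values are a score in the sense that the authors normalized the counts with DESeq2 1.30.1 and rounded them; averaged over genotypes, replicate numbers differed by an SD of only 0.0116 (log2), against 0.317 within wild types, and no step that would do this is given in the sources used here. Single-end duplicate removal can compress abundant genes.

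Genes of mean 5 or above went into limma 3.58.1 (R 4.3.3, eBayes with trend) on log2(value + 1), genotype only, with Benjamini-Hochberg adjustment over 17501 genes. Values come from 2 pools per genotype. On simulated data, 200 of 200 genes changed 4-fold at a mean of at least 50 were recovered, with 3 false calls among 17509 genes. The simulated pools varied independently with a fixed dispersion, unlike the mirrored pools here, and changed genes below a mean of 50 were not simulated. These recoveries therefore give no estimate of the power for these data. Other steps used Python 3.11.15 and scipy 1.17.1. The members, gene lists and tests were chosen with earlier results of these data known. Named genes are the members, *egr3*, *spp1*, all Rxr genes, the gene with the lowest p in each direction of a list, the 5 genes nearest to *nr4a2b*, the nearest neighbors and marker genes. The genes *fosab*, *junbb*, *egr4*, *ier2a*, *egr1*, *atf3*, *dusp1*, *creb1a*, *creb1b*, *eno3* and the dopaminergic genes besides *th* were added after their values were seen. Read-depth intervals, levels per exon length, shares of the family total, proteins and promoters were not used here, since read counts, exon lengths and reference sequences were not at hand.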

Additional observations from a re-analysis of the deposited data

How the results depend on the processing

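Over 13 alternative fits (pseudocounts, filters, scalings, no trend, replicate block, each pool left out), all 3 members stayed lower in mutants. The fits reuse the same mirrored pools, so their number is not repeated evidence. In those that keep all pools, 858 (replicate block) to 4395 genes (trimmed-mean scaling) had p under 0.05 before adjustment (limma). Before adjustment, p was under 0.05 in 13 of 13 for *nr4a1* and *nr4a2b* and in 1 of 13 (quantile normalization) for *nr4a3*. Adjusted p ranged from 0.0827 to 0.841 for *nr4a1*, 0.0188 to 0.841 for *nr4a2b* and 0.199 to 0.846 for *nr4a3* (limma). Without the trend, *nr4a2b* passed (log2 difference -5.52, adjusted p = 0.0188). Its difference ran from -6.51 with a pseudocount of 0.5 to -3.32 with 5; against *nr4a1* it was -6.09 and -2.91.

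The number of genes called over the table was 1; it was 0 without the filter on low values, 3 with a mean of at least 20, 28 without the trend and 0 with the replicate block (limma, with 3772, 4319, 3222, 3472 and 858 genes at p under 0.05 before adjustment). It was 0 with any 1 pool left out (1165 to 1721 before adjustment), where the lone pool is assumed to vary like the others. Among reported NR4A targets, 1 gene (*spp1*) was called with a mean of at least 20 and 1 without the trend. *rxrba* ran from -0.28 to 0.65 when a pool was left out, reversing to -0.28 without wild-type replicate 1 and -0.26 without mutant replicate 1. With the replicate block, standard errors were 0.86 for *nr4a2b*, 0.12 for *nr4a1* and 0.24 for *nr4a3*, and this block by number changed no call of a member. Same-numbered pools deviated in opposite directions (correlation -0.987), and a crossed pairing, added after the data were seen, called 12169 genes, among them all 3 members. The outcomes of both blocks follow from these mirrored deviations. They leave a block by number little to remove and a crossed pairing almost no remaining spread. Neither block is therefore a test of the members. Levels by coding length were not run, since lengths were not at hand. The cause of these shifts was not tested.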
